A study of Rattus norvegicus with 16 samples.

Results

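A set of 10 genes that are little studied in the heart were followed in the left ventricle of rats with an aortocaval fistula (ACF), a shunt from aorta to vena cava that loads the heart with volume. They were Dnah7, Tmem119, Depdc7, Gabrb2, Rasd2, Art1, Cnpy1, Paqr9, Otud1 and Bex1. The genes had been picked for large changes at 16 or 24 weeks against control on these same arrays, without a stated threshold, and every probe set annotated with exactly 1 of the 10 symbols was kept. This gave 14 probe sets of 31042 for 10 genes of 14217, with 2 probe sets each for Depdc7, Gabrb2, Rasd2 and Art1, the first being that with the higher mean, and 1 each for the other 6 genes. The label of late change was checked against the time course. At 8 weeks the arrays of Dnah7, Tmem119, Gabrb2, Rasd2, Art1 and Paqr9 lay outside the control range in at least 1 probe set. Cnpy1 differed from control by 0.12. In all, 7 of the 14 probe sets did not overlap control at 8 weeks, beside 4.9% of all 31042. By limma, 0 of the 14 passed at 8 weeks at an adjusted p of 0.05. The control arrays were also those used to choose the genes, so this check is not independent of the choice. The changes at 16 and 24 weeks chose the genes, so they are given below as description with no test.

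The genes belong to unrelated families. Dnah7 is a motor of motile cilia, Gabrb2 and Paqr9 are receptors or receptor-like membrane proteins, Art1 modifies proteins at the muscle cell surface and Tmem119 is a membrane protein of bone-forming cells and microglia. Rasd2 is a small GTPase, Depdc7, Cnpy1 and Bex1 are signalling or adaptor proteins, and Otud1 removes ubiquitin from proteins.

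Each array held RNA of the whole left ventricle of 1 adult male Sprague-Dawley rat. There were 4 controls, and groups of 4 were studied 8, 16 and 24 weeks after the shunt had been made. Beyond the ACF, no allele or agent is named for any group. The titles call the control arrays baseline, whereas the design text speaks of sham. The methods describe rats of 8 to 10 weeks at ACF surgery and sham controls opened without puncture of the vessels, but the labels do not say whether these 4 controls had that surgery or at what age they were studied. ACF, age and surgery therefore cannot be told apart wherever control is the reference. For the latest group the titles give 24 weeks but the sample descriptions 24, 25, 26 and 27 weeks. Replicates are taken as separate rats, since the extraction protocol gives 4 per group, although the design text speaks of 3 biological replications. If some arrays shared a rat, the p-values would measure partly technical spread.

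The 16 arrays had medians at 2 levels. The 9 arrays at 6.13 to 6.17 comprised every control, 3 of the 8-week and 2 of the 16-week arrays. The 7 arrays at 5.92 to 5.96 comprised 1 of the 8-week arrays, 2 of the 16-week arrays and the whole 24-week group. Every value below is a log2 intensity minus the median of its array, called the centred value. Without centring, the typical probe set lay below control, with a median log2 difference of -0.06 after 8 weeks, -0.13 after 16 and -0.21 after 24. The values carry no detection call, so a low value may be background, and a fold change from a low control value may understate the change. In whole ventricle, fewer cells of a type and less RNA per cell cannot be told apart. Ventricular cardiomyocyte markers had 0 of 11 genes called at 8, 16 or 24 weeks by limma at an adjusted p of 0.05. At an unadjusted p under 0.05 the counts were 1, 3 and 0. Their 16-week log2 differences ran from -0.62 (Ckm) to 0.14 (Myh7). Their summed intensity ran from 164100 to 174500 in the controls and from 158900 to 175900 at 8 weeks. It ran from 139700 to 171400 at 16 weeks and from 161400 to 171400 at 24 weeks. From 99.6% to 100% of all probe sets lay at or below the means of these markers, and so near the top of the scale a difference may be understated.

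**Figure D1:**
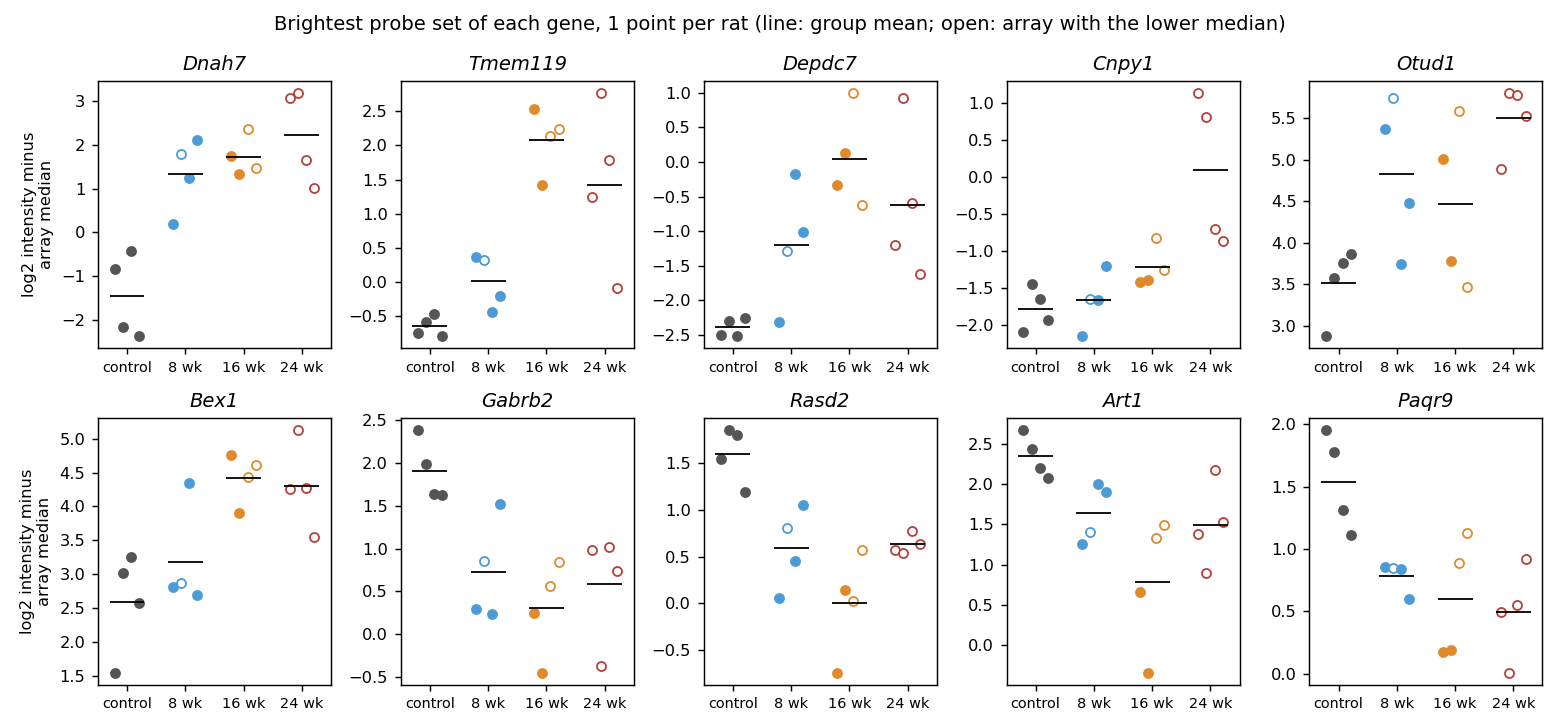
Centred log2 intensity (vertical axis) of the probe set with the higher mean of each gene, by group (horizontal axis), with 1 point per rat, a line at the group mean, and open points for arrays with the lower median. The upper row and Bex1 lie higher after ACF, Gabrb2, Rasd2, Art1 and Paqr9 lie lower, and Cnpy1 has 2 of its 4 arrays at 24 weeks at 1.14 and 0.81, far above the rest.

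Over the 14 probe sets, all 4 arrays at 8 weeks lay above all 4 control arrays in 2 and below them in 5, while 7 overlapped. Over all 31042 probe sets, 4.9% did not overlap at 8 weeks, 2.74% above and 2.16% below. At 16 weeks, 6 lay above, 6 below and 2 overlapped, against 13.1% of all probe sets without overlap, 7.65% above and 5.42% below. At 24 weeks, 7 lay above, 4 below and 3 overlapped, against 8.83% of all, 4.32% above and 4.51% below. The genes were chosen on the 16- and 24-week contrasts, so those counts are no result. The 8-week contrast was not named by the choice but uses the same 4 control arrays. Its counts and p-values, here and below, are therefore not independent of the choice. At 8 weeks, 0 of the 14 probe sets passed limma at an adjusted p of 0.05 over all probe sets, where 0.0322% of all probe sets were called. At an unadjusted p under 0.05, limma gave 9 of the 14, beside 6.2% of all probe sets. Fitted with array weights, limma called 3 of the 14, Dnah7, Gabrb2 and Rasd2, beside 165 of all 31042 probe sets, against 10 without weights.

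**Figure D2:**
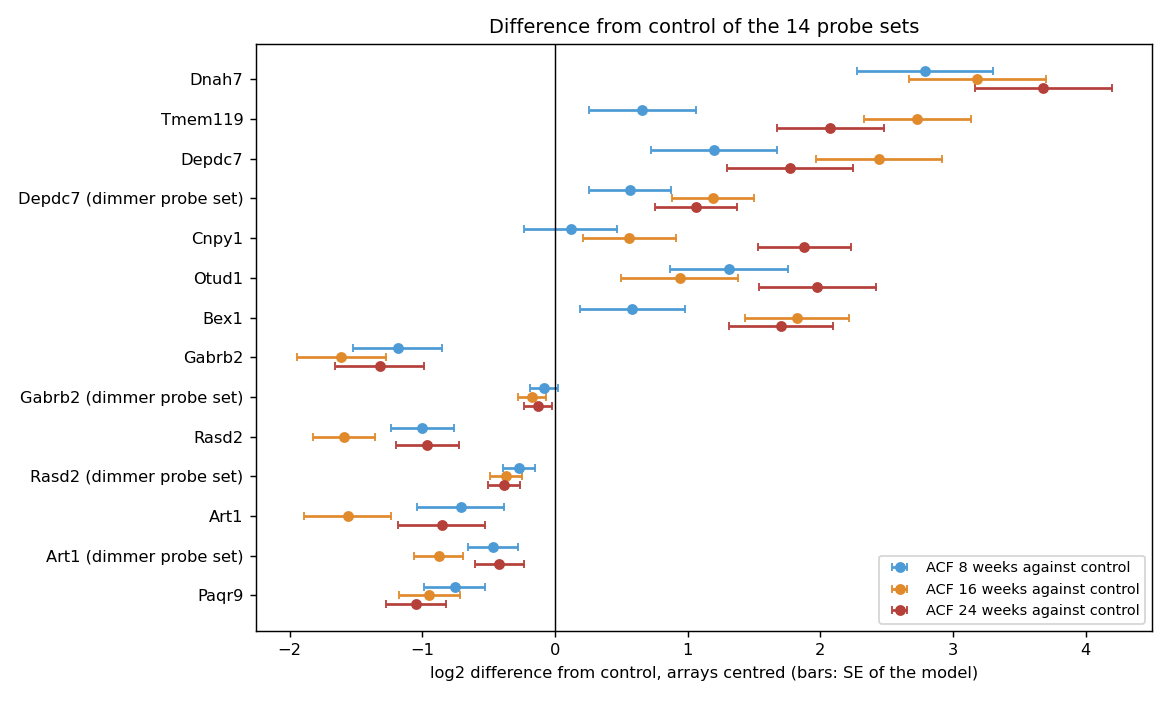
Log2 difference from control (horizontal axis) of the 14 probe sets (vertical axis) at 8, 16 and 24 weeks after ACF, with bars of 1 SE from the model over 16 arrays. Dnah7 has the highest values, 2.79 to 3.68, and the second probe sets of Gabrb2 and Rasd2 lie nearer to 0 than the first.

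Dnah7 encodes a heavy chain of the inner dynein arms, the motors that bend motile cilia. Its probe set had centred values of -0.83, -2.16, -0.43 and -2.37 in the controls. At 8 weeks they were 0.20, 1.79, 1.26 and 2.12, at 16 weeks 1.76, 1.34, 2.37 and 1.48, and at 24 weeks 3.07, 3.19, 1.67 and 1.01. All 12 ACF arrays lay above all 4 controls, and the controls were widely spread, in a high and a low pair. Against control the mean log2 difference was 2.79 after 8, 3.18 after 16 and 3.68 after 24 weeks (SE 0.51 each, n = 4 arrays per group). The 8-week difference was the highest of all 31042 probe sets, 6.91-fold, with an unadjusted p of 4.39e-05 and an adjusted p of 0.0885 by limma, and an exact two-sided permutation p of 0.0286, the smallest that 4 against 4 arrays can give. The adjusted p was 0.0415 without 24-week replicate 2, 0.0340 without 24-week replicate 4 and 0.00952 with array weights, and ranged from 0.00952 to 0.417 over the alternatives.

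The other measured ciliary genes did not pass the test. Of 29 listed genes of axonemal dynein and motile cilia, 13 were measured. Of these 13, 0 passed limma at 8, 16 or 24 weeks. Their log2 differences ran from -0.31 to 0.22 at 16 weeks and from -0.29 to 0.19 at 24 weeks. At an unadjusted p under 0.05 the counts were 0, 1 and 0. Foxj1, the transcription factor that switches on the motile cilia programme, differed by -0.05 (SE 0.11, adjusted p = 0.870) at 16 weeks. It was dim, with 19.5% of all probe sets at or below its mean. The summed intensity of the 4 measured markers of ciliated epithelium ran from 84.9 to 90.6 in the controls, from 78.4 to 91.9 at 8 weeks, from 79.1 to 89.1 at 16 weeks and from 76.7 to 99.7 at 24 weeks, so those groups overlapped. From 5.3% to 38% of all probe sets lay at or below the means of these 4 markers. At such low levels a lack of change cannot be told from background.

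The promoter of Dnah7 is shown because an X-box palindrome, the kind of site bound by the RFX factors of ciliary genes, lies next to its start. The 250 bases before the annotated start, chr9:62756616-62756865 on the minus strand of GRCr8 in RefSeq, read 5′ to 3′ with the palindrome in capitals.
Dnah7: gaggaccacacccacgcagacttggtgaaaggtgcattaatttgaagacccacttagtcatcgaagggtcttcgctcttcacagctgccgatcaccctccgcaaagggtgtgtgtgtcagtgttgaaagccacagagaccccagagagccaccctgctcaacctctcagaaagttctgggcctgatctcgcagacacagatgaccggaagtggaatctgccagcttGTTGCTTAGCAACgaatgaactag
The letters GTTGCNNNGCAAC begin 24 bases and end 12 bases before the start. On either strand, 75 of 33469 RefSeq promoters of this length hold them (0.224%), and of the 6 genes here with a promoter in the table Dnah7 alone does. The 8 motifs searched were chosen after these promoters had been seen, and a match describes letters, not a site in use.

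Gabrb2 encodes the beta 2 subunit of the GABA-A receptor, the chloride channel of inhibitory synapses. Its first probe set had centred values of 2.39, 1.99, 1.64 and 1.62 in the controls and of 0.29, 0.85, 0.24 and 1.52 at 8 weeks. At 16 weeks the values were 0.24, -0.45, 0.56 and 0.84, and at 24 weeks 0.99, -0.37, 1.01 and 0.73. Every ACF array lay below every control, the nearest being replicate 4 at 8 weeks. The log2 difference was -1.19 at 8 weeks (SE 0.33, adjusted p = 0.368 by limma, exact permutation p = 0.0286), -1.61 at 16 weeks and -1.32 at 24 weeks. With array weights the adjusted p at 8 weeks was 0.0381, and it ranged from 0.0381 to 0.806 over the alternatives.

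The second Gabrb2 probe set was dim, with 14% of all probe sets at or below its mean. Its differences were -0.08, -0.17 and -0.13 at 8, 16 and 24 weeks (SE 0.10), and its arrays overlapped the controls at 8 and 24 weeks. The probe sets of this gene gave unequal changes, with r = 0.555 over the 16 arrays and 0.353 with group means subtracted. Among 17 other measured GABA receptor subunit genes, 0 passed limma at 8, 16 or 24 weeks, and 1, 1 and 0 had an unadjusted p under 0.05. Their 16-week differences ran from -0.31 to 0.42.

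Paqr9 belongs to the progestin and adipoQ receptor family and is named as a membrane progesterone receptor. Its control values were 1.96, 1.78, 1.32 and 1.11. They were 0.85, 0.85, 0.84 and 0.60 at 8 weeks, 0.17, 0.19, 0.89 and 1.13 at 16 weeks, and 0.49, 0.01, 0.55 and 0.92 at 24 weeks. Only replicate 4 at 16 weeks reached into the control range, and the other 11 ACF arrays lay below it. The difference was -0.76 at 8 weeks (SE 0.23, adjusted p = 0.433 by limma, exact permutation p = 0.0286), -0.95 at 16 weeks and -1.05 at 24 weeks. Of the 11 measured genes of the family and its progesterone-binding partners, 2 rose at 16 weeks and 0 passed at 8 or 24 weeks. Paqr8, another membrane progesterone receptor, rose by 1.66 (adjusted p = 0.00426 by limma) and Pgrmc1, a haem-binding membrane protein, by 0.50 (adjusted p = 0.0379), the direction opposite to that of Paqr9. Their 24-week differences were 0.63 and 0.25 (adjusted p = 0.322 and 0.391 by limma).

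Art1 encodes an enzyme that adds ADP-ribose to arginines of proteins on the surface of skeletal and cardiac muscle cells. Its first probe set read 2.68, 2.45, 2.2 and 2.08 in the controls and 1.26, 1.4, 2.0 and 1.9 at 8 weeks. It read 0.66, -0.35, 1.34 and 1.5 at 16 weeks and 1.38, 0.89, 2.18 and 1.53 at 24 weeks. Arrays at 8 and 16 weeks all lay below the controls, and replicate 3 at 24 weeks lay within their range. The differences were -0.71 at 8 weeks (SE 0.33, adjusted p = 0.794 by limma, exact permutation p = 0.0286), -1.56 at 16 weeks and -0.85 at 24 weeks, so the mean was lowest at 16 weeks and 0.71 higher at 24 weeks (SE 0.33, not tested).

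The second Art1 probe set followed the first over the 16 arrays (r = 0.882, and 0.729 with group means subtracted), with smaller differences of -0.47, -0.88 and -0.42 (SE 0.19). Its arrays overlapped the controls at 8 and 24 weeks and all lay below them at 16 weeks. At 24 weeks its difference was -0.23 without 24-week replicate 2. Of 8 other measured genes that add or remove ADP-ribose, 2 fell at 16 weeks and 0 passed at 8 or 24 weeks. Art5, a sister enzyme, fell by 0.98 (adjusted p = 0.00434 by limma) and Macrod1, a mitochondrial ADP-ribose hydrolase, fell by 0.97 (adjusted p = 0.00621).

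Tmem119 encodes a membrane protein that promotes osteoblast differentiation and is a marker of microglia. Its centred values were -0.74, -0.59, -0.47 and -0.79 in the controls and 0.36, 0.32, -0.45 and -0.21 at 8 weeks. At 16 weeks they were 2.53, 1.41, 2.14 and 2.24, and at 24 weeks 1.24, 2.77, 1.78 and -0.08. All 12 ACF arrays lay above the controls, although replicate 3 at 8 weeks lay just above the highest control. The difference was 0.66 at 8 weeks (SE 0.40, adjusted p = 0.916 by limma, exact permutation p = 0.0286), 2.73 at 16 weeks and 2.08 at 24 weeks. The 16-week mean was 2.07 above the 8-week mean, which 1 probe set of 31042 exceeded (no test, since the choice used 16 weeks).

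Genes of the settings in which Tmem119 is known were looked at beside it. Of 12 measured osteoblast and BMP genes, only Spp1, the secreted matrix protein osteopontin, rose at 16 weeks (3.06, adjusted p = 0.00409 by limma), with 0.50 at 24 weeks (adjusted p = 0.707). Of 7 other microglial markers, P2ry12, a receptor for ADP, rose by 1.47 (adjusted p = 0.00309) and Csf1r, the receptor for macrophage colony-stimulating factor, by 1.06 (adjusted p = 0.000665) at 16 weeks. Csf1r, which is on the macrophage list too, also rose at 24 weeks, by 0.69 (adjusted p = 0.0386 by limma). Sall1, Olfml3, Cx3cr1, Gpr34 and Trem2 did not pass at any time.

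Rasd2, also called Rhes, is a small GTPase best known from the striatum of the brain. Its first probe set had control values of 1.54, 1.85, 1.79 and 1.18 and 8-week values of 0.06, 0.80, 0.45 and 1.05. The 16-week values were -0.74, 0.14, 0.03 and 0.57, and the 24-week values 0.57, 0.54, 0.77 and 0.64. Every ACF array lay below every control, and the 24-week arrays were close together (SD 0.10). The difference was -1.0 at 8 weeks (SE 0.24, adjusted p = 0.174 by limma, exact permutation p = 0.0286), -1.59 at 16 weeks and -0.96 at 24 weeks. With array weights the adjusted p at 8 weeks was 0.0160, and it ranged from 0.0160 to 0.553 over the alternatives.

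The second Rasd2 probe set also lay below the controls on every ACF array, with differences of -0.27, -0.37 and -0.38 (SE 0.12). The 2 probe sets had r = 0.528 over the 16 arrays and -0.121 with group means subtracted. Of 11 other measured Ras-like GTPase genes, Gem, an inhibitor of voltage-gated calcium channels, rose by 1.29 at 16 weeks (adjusted p = 0.00853 by limma), while Rasl12 fell by 0.91 (adjusted p = 0.0459), and 0 passed at 8 or 24 weeks. Rasd1, the closest relative of Rasd2, had a 16-week difference of 0.94 (SE 0.28, adjusted p = 0.0550 by limma).

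**Figure D3:**
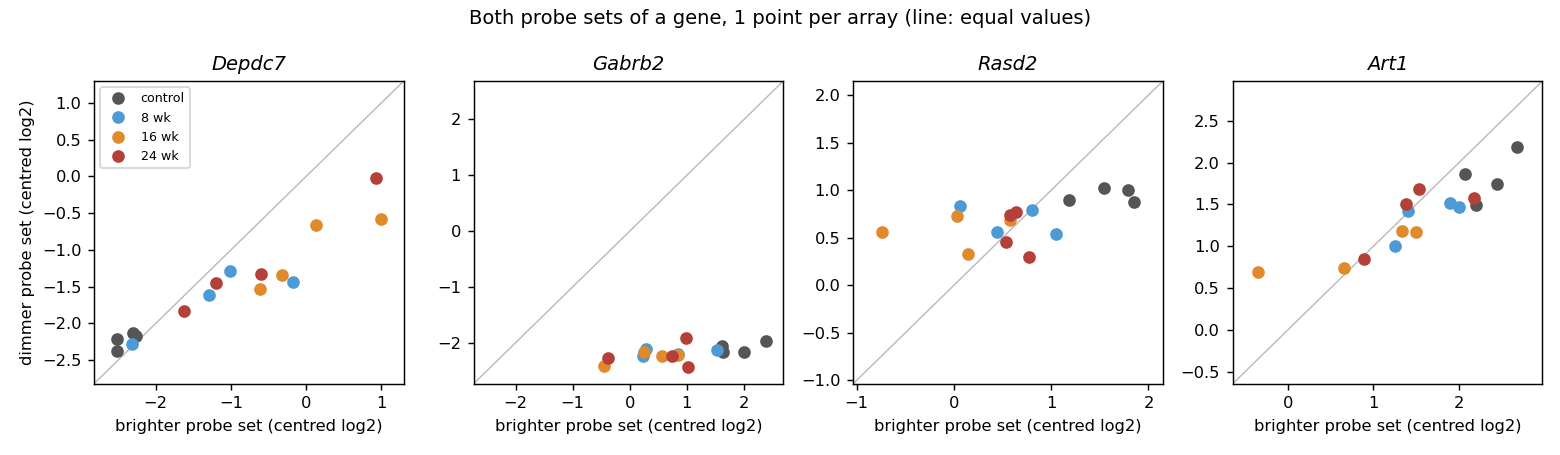
Centred log2 intensity of the probe set with the lower mean (vertical axis) against that with the higher mean (horizontal axis) for the 4 genes with 2 probe sets, 1 point per array coloured by group, with a line of equal values. In Depdc7 and Art1 the probe sets go together, whereas the second Gabrb2 probe set stays between -2.44 and -1.92 over all arrays.

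Depdc7 encodes a protein with a DEP domain, a fold found in many signalling proteins. Its first probe set was low and even in the controls, at -2.51, -2.3, -2.52 and -2.26. Its values were -2.32, -1.28, -0.18 and -1.01 at 8 weeks, -0.33, 0.13, 1.0 and -0.62 at 16 weeks, and -1.20, 0.93, -0.59 and -1.63 at 24 weeks. At 8 weeks 1 array remained within the control range, and all arrays at 16 and 24 weeks lay above it. The difference was 1.2 at 8 weeks (SE 0.48, adjusted p = 0.682 by limma, exact permutation p = 0.0857), 2.44 at 16 weeks and 1.77 at 24 weeks. The second probe set gave 0.57, 1.19 and 1.06 (SE 0.31) and followed the first closely (r = 0.953 over 16 arrays, 0.924 within groups). Its 24-week difference was 0.69 without 24-week replicate 2, the highest array of both probe sets in that group. Of 18 other measured genes with a DEP domain, 0 passed limma at 8, 16 or 24 weeks, and 0, 3 and 2 had an unadjusted p under 0.05.

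Cnpy1 belongs to the canopy family, known for aiding FGF signalling. It read -2.10, -1.45, -1.66 and -1.93 in the controls, -2.15, -1.65, -1.67 and -1.2 at 8 weeks and -1.42, -1.39, -0.82 and -1.26 at 16 weeks. At 24 weeks it read 1.14, 0.81, -0.70 and -0.86. The 24-week arrays fell into a high and a low pair, both above all controls, and the lower pair lay close to the highest 16-week array. The difference was 0.12 at 8 weeks (SE 0.35, adjusted p = 0.993 by limma), 0.56 at 16 weeks and 1.88 at 24 weeks, and without 8-week replicate 4 the 8-week value was -0.04. The 24-week mean was 1.32 above the 16-week mean (SE 0.35, not tested). Of 14 measured genes of the canopy family and FGF signalling, Dusp6, a phosphatase induced by ERK signalling, rose at 24 weeks (0.78, SE 0.16, adjusted p = 0.0452 by limma), and 0 passed at 8 or 16 weeks. Its 8-week difference was also 0.78 (adjusted p = 0.107 by limma) and its 16-week difference 0.42 (adjusted p = 0.156). Cnpy2, Cnpy3 and Cnpy4 had 24-week differences of 0.02, 0.13 and 0.18.

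Bex1 encodes a small adaptor protein that binds the p75 neurotrophin receptor. Its centred values were 1.55, 3.01, 3.25 and 2.57 in the controls and 2.81, 2.87, 4.34 and 2.69 at 8 weeks. They were 4.75, 3.90, 4.43 and 4.61 at 16 weeks and 4.25, 5.13, 4.28 and 3.54 at 24 weeks. At 8 weeks 3 of 4 arrays lay within the control range, and at 16 and 24 weeks every array lay above it. The difference was 0.58 at 8 weeks (SE 0.39, adjusted p = 0.939 by limma, exact permutation p = 0.457), 1.82 at 16 weeks and 1.70 at 24 weeks. The 8-week value was 0.20 without 8-week replicate 3 and 0.23 without control replicate 1. A further probe set annotated to both Bex1 and Bex2 was left out by the rule. It was dim, with 1.5% of all probe sets at or below its mean, and did not rise. Its deposited values, not centred, were 2.91 to 3.02 in the controls and 2.78 to 3.04 at 8 weeks. They were 2.68 to 2.92 at 16 weeks and 2.85 to 2.98 at 24 weeks.

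In the same family, 2 of 8 other measured BEX and TCEAL genes (the p75 receptor gene Ngfr included) rose at 16 weeks. Tceal9 rose by 1.2 (adjusted p = 0.00374 by limma) and Tceal5 by 2.07 (adjusted p = 0.0111), and their 24-week differences were 0.88 and 1.53 (adjusted p = 0.0703 and 0.106). These genes are named as relatives of a transcription elongation factor. Bex2, Bex3 and Bex4 had 16-week differences of -0.04, 0.48 and 0.25 (adjusted p = 0.876, 0.0528 and 0.606 by limma).

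Otud1 encodes a deubiquitinase of the OTU family. It read 2.88, 3.57, 3.75 and 3.87 in the controls, 5.37, 5.73, 3.74 and 4.47 at 8 weeks and 5.0, 3.78, 5.59 and 3.47 at 16 weeks. At 24 weeks it read 4.89, 5.80, 5.78 and 5.53. At 8 weeks 1 array and at 16 weeks 2 arrays remained in the control range, whereas all 4 at 24 weeks lay above it. The difference was 1.31 at 8 weeks (SE 0.44, adjusted p = 0.504 by limma, exact permutation p = 0.0857), 0.94 at 16 weeks and 1.98 at 24 weeks. The 16-week value was 0.57 without 16-week replicate 3. Of 10 other measured OTU deubiquitinase genes, 0 passed limma at 8, 16 or 24 weeks, and 0, 0 and 1 had an unadjusted p under 0.05.

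**Figure D4:**
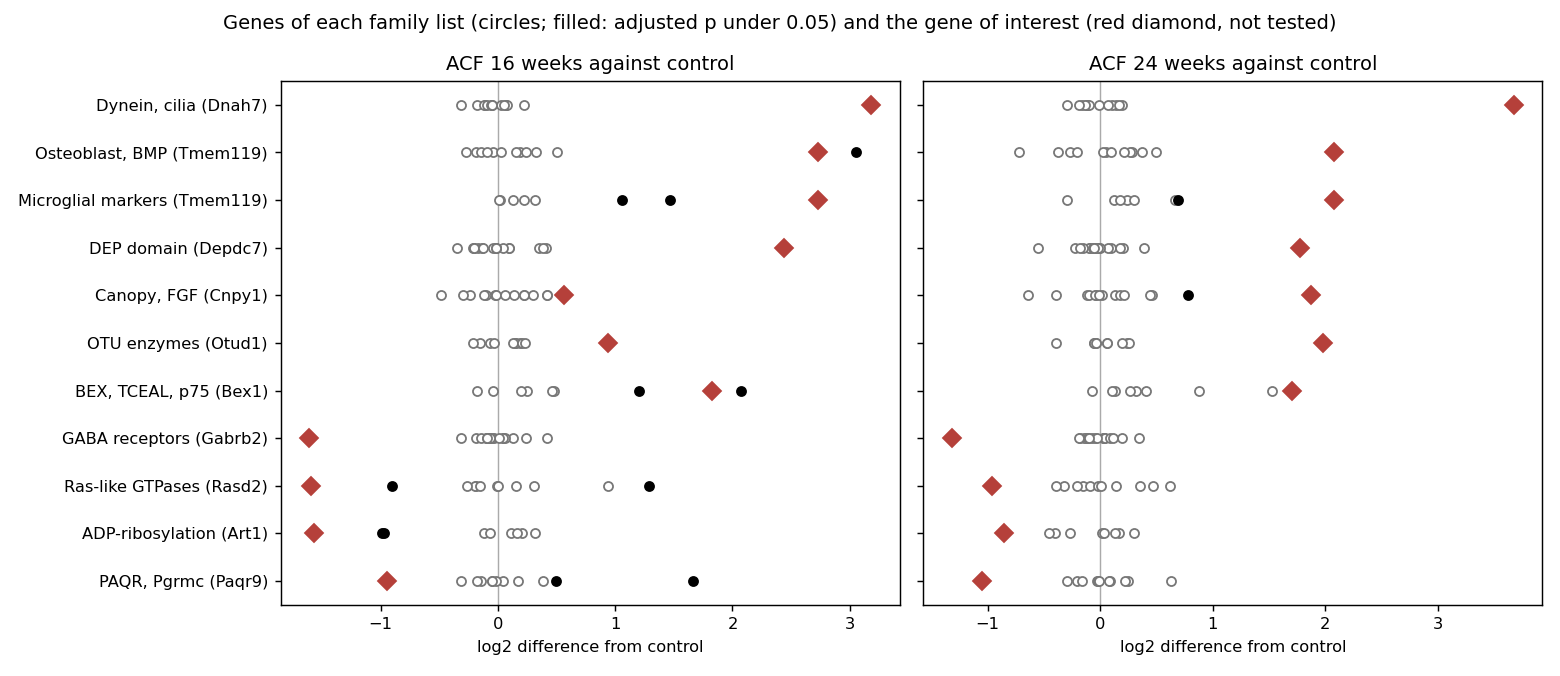
Log2 difference from control (horizontal axis) at 16 and 24 weeks of the genes in each family list (circles, filled where limma's adjusted p was under 0.05) and of the gene under study (red diamond, not tested), with 1 row per list. Most circles lie near 0, and the filled ones number 11 at 16 weeks and 2 at 24 weeks.

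Over all 11 family lists, 129 genes other than the 10 were measured. At 16 weeks limma called 11 of them, 8 higher and 3 lower, or 8.53% beside 5.47% of all probe sets. Family genes stood for their probe sets with the highest means, and of the 14217 genes taken in that way 7.51% were called. At 24 weeks it called 2, both higher, or 1.55% beside 0.438% of all probe sets and 0.584% of genes, and at 8 weeks 0, beside 0.0422% of genes. At an unadjusted p under 0.05 the counts were 10, 29 and 24 at 8, 16 and 24 weeks, or 7.75%, 22.5% and 18.6%, beside 7.84%, 24.3% and 16.2% of genes. These shares were near those of all genes. The 24-week count was 0 without control replicate 1, 2 or 3, 8-week replicate 3 or 24-week replicate 1, 2 or 3, each left out alone, and 5 without 24-week replicate 4.

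Markers of other cells moved over the same arrays, and their part in the values of the 10 genes was not tested. Of 9 macrophage markers limma called 1 at 8 weeks, 8 at 16 weeks and 4 at 24 weeks, all higher, and their summed intensity ran from 1932 to 2528 in the controls, from 4011 to 4650 at 8 weeks, from 4655 to 9280 at 16 weeks and from 3214 to 5040 at 24 weeks. Of 9 fibroblast markers 0, 4 and 1 rose at 8, 16 and 24 weeks, with sums of 13940 to 18300 in the controls, 16450 to 21250 at 8 weeks, 19290 to 24220 at 16 weeks and 16860 to 21890 at 24 weeks. Of 4 atrial markers only Nppa, the atrial natriuretic peptide gene, was called, rising at 16 weeks by 2.21 (adjusted p = 0.00887 by limma). Myl7, Myl4 and Sln had 16-week differences of -1.27, 0.21 and 0.54 (adjusted p = 0.7473, 0.9475 and 0.7978 by limma). The sums were 1398 to 9996 in the controls and 8132 to 24590 after ACF. Nppa weighs most in them by its mean centred value, 7.04 against 1.02 to 2.84 for the other markers. Skeletal muscle markers, listed beside Art1, had 0 of 7 called at 8, 16 or 24 weeks. Their sums were 11630 to 15560 in the controls and 10360 to 15540 after ACF. Acta1 and Myh1 weigh most in these sums by their mean centred values, 6.95 and 6.21 against -3.12 to -0.45 for the other markers. Of 9 markers of neurons and Schwann cells, listed beside Gabrb2, Rasd2 and Bex1, 0, 1 and 0 were called, the 1 lower, with sums of 349 to 416 in the controls and 327 to 411 after ACF. Of 7 endothelial markers only Vwf rose, at 16 and 24 weeks, and of 6 lymphocyte markers 1 was lower at 24 weeks. Markers of smooth muscle and pericytes (7), neutrophils (3), mesothelium (4), adipocytes (5) and red cells (2) had 0 called at any time by limma.

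Likeness of pattern was measured by Pearson's r over the 16 arrays between the probe sets with the highest means of each gene, and the 3 closest genes were taken, as a description with no test. Depdc7 was closest to Tes, a protein of cell adhesions (r = 0.949), followed by Col8a1, a short-chain collagen (0.919), and Wnk1, a kinase of ion transport (0.919). Tmem119 was closest to Zdhhc9, a palmitoyltransferase (0.94), Ostm1, a partner of a lysosomal chloride transporter (0.934), and Vwf, the von Willebrand factor of endothelium (0.923). Bex1 was closest to Tceal9 of its own family list (0.931), then Tmx1 and Sema3b. Otud1 was closest to Irf2bp2 (0.948), Atf3, a stress-induced transcription factor (0.927), and Irs2, an adaptor of insulin signalling (0.91). These genes shared arrays of the same rats and the same group differences, and the correlation within groups was 0.864 for Tes, 0.825 for Zdhhc9, 0.833 for Tceal9 and 0.934 for Irf2bp2.

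Gabrb2 was closest to Slc22a23, a member of the organic ion transporter family (r = 0.939), Ddit4l, an inhibitor of mTOR signalling (0.91), and Qdpr, which regenerates tetrahydrobiopterin (0.901). Rasd2 was closest to Emc9 (0.933), Gsta4, a detoxifying glutathione transferase (0.923), and Gpt, alanine aminotransferase (0.922). Art1 was closest to Galnt13 (0.921), Tmod4, a cap of actin filaments in muscle (0.897), and Gcdh, a mitochondrial dehydrogenase (0.886). Paqr9 was closest to Tsc22d4, Spag7 and Txnrd2 (0.885 to 0.878). The lowest likeness values belonged to Dnah7 and Cnpy1. Dnah7 was closest to Bmp6, a ligand of BMP receptors, Alox5, which starts leukotriene synthesis, and the histone gene H3c1 (0.867 to 0.855). Cnpy1 was closest to Batf, B4galt2 and Camk2b (0.867 to 0.857). Within groups, r for the genes closest to Gabrb2, Rasd2, Art1, Paqr9, Dnah7 and Cnpy1 ran from 0.572 for Camk2b to 0.857 for Slc22a23.

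The correlation of deviations from the group means was also described over the 16 arrays. Whether the choice of the genes took account of the spread within groups is not stated. Over all 101054436 pairs of 14217 genes this r had a median of 0.02, with 5% of pairs at or below -0.53 and 5% above 0.56. The 6 pairs of the 4 lower genes had r from 0.33 to 0.737, with a median of 0.52, the highest being Gabrb2 with Art1 and the next Art1 with Paqr9 (0.679). The 15 pairs of the 6 higher genes ran from -0.077 to 0.704, with a median of 0.385 and 12 above 0. Dnah7 and Cnpy1 had the highest value of these (0.704), and the values below 0 were those of Otud1 with Dnah7, Cnpy1 and Bex1. The 24 pairs of a lower and a higher gene ran from -0.442, Gabrb2 with Bex1, to 0.255, Dnah7 with Rasd2, and 6 were above 0.

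Some of these correlations changed when array level was taken into account, and the cause was not tested. At 16 weeks both arrays at the lower level read higher than both at the higher level in the first probe sets of Gabrb2, Art1 and Paqr9. With the means of group and level subtracted, an alternative chosen after seeing the data, the 6 pairs of lower genes ran from 0.087 to 0.707, with a median of 0.38. Rasd2 went from 0.33 to 0.087 with Art1 and from 0.401 to 0.149 with Paqr9, whereas Gabrb2 with Art1 had 0.707. The pairs of higher genes then had a median of 0.386 and the mixed pairs -0.22.

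**Figure D5:**
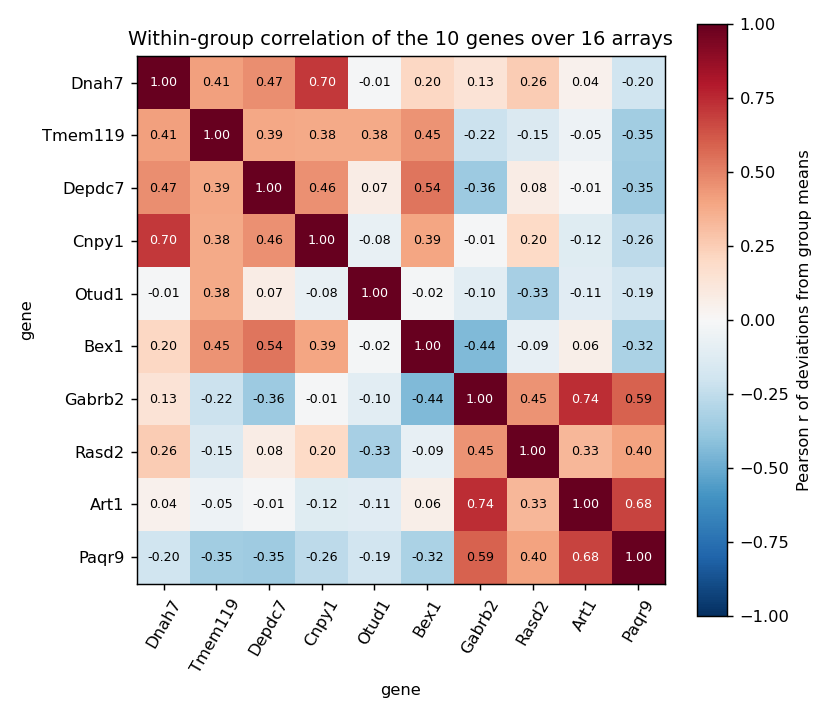
Pearson's r (colour and number) between the genes (both axes) of deviations from group means over the 16 arrays, with the 6 higher genes first and the 4 lower genes last. The block of Gabrb2, Rasd2, Art1 and Paqr9 holds values from 0.33 to 0.74, and Otud1 is near 0 with most of the others.

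The promoters of the 4 lower genes are shown because these genes had lower means than control at 16 and 24 weeks and could be compared for shared letters. Each is the 250 bases before the annotated start in RefSeq, GRCr8, 5′ to 3′, with the matches described in capitals. They lie at chr10:27439543-27439792 (plus strand) for Gabrb2, chr19:13599778-13600027 (plus) for Rasd2, chr1:165894353-165894602 (plus) for Art1 and chr8:104993634-104993883 (plus) for Paqr9.
Gabrb2: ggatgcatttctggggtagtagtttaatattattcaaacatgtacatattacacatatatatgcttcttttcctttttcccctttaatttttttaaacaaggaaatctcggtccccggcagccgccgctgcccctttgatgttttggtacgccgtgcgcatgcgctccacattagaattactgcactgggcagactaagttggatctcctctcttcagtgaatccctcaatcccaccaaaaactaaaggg
Rasd2: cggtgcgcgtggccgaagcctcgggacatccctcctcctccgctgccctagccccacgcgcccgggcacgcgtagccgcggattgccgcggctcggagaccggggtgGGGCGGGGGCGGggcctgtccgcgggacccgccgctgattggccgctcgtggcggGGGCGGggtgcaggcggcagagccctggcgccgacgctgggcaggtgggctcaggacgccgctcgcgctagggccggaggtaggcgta
Art1: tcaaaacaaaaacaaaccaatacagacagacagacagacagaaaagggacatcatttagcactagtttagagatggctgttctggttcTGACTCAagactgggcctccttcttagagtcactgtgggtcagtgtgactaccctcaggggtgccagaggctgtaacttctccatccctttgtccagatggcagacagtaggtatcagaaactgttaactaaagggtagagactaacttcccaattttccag
Paqr9: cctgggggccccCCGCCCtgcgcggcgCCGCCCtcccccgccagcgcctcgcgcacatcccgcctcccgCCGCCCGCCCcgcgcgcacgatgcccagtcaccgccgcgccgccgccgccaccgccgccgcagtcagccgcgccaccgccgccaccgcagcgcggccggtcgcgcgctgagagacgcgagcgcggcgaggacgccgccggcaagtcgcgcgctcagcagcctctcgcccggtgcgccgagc
The capitals mark GGGCGG, the GC box, on either strand in Rasd2 (3 matches) and Paqr9 (4 matches, of which the last pair overlap by 2 bases), and TGACTCA, an AP-1 site, in Art1. GGGCGG occurs in 30.5% of 33469 promoters and TGACTCA in 4.05%. GGGCGG was also in the promoter of Cnpy1, a higher gene, and so in 3 of the 6 searched. The promoters of the 4 genes had no searched motif in common, and that of Gabrb2 held none. The CRE palindrome TGACGTCA, the E-box CACGTG, the nuclear receptor core site AGGTCA and the GATA site AGATAA were in none of the 6 promoters searched. A second E-box, CAGCTG, in 12% of all promoters, was in that of Dnah7 alone.

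Some differences of the 10 genes depended on how array level was treated, and the cause was not tested. When array level entered the model as a block, the 24-week difference was -1.86 for Gabrb2, -1.42 for Rasd2, -1.44 for Art1 and -1.56 for Paqr9, further from 0 than the -0.85 to -1.32 without it. The second probe sets of Rasd2 and Art1 gave -0.59 and -0.72 in that fit. For the higher genes the block gave 3.21 for Dnah7, 1.77 for Tmem119, 1.66 for Depdc7, 1.66 for Cnpy1, 1.38 for Otud1 and 1.77 for Bex1. No control array has the lower level and no 24-week array the higher one, so this fit separates level from time only through the 8- and 16-week arrays. Among the 9 arrays at the higher level, which hold 2 of the 16-week rats, the 16-week differences were 3.0 for Dnah7, 2.63 for Tmem119, 2.3 for Depdc7, 0.38 for Cnpy1, 0.87 for Otud1 and 1.73 for Bex1. In the same arrays they were -2.02 for Gabrb2, -1.89 for Rasd2, -2.19 for Art1 and -1.36 for Paqr9. Each of the 10 genes kept its direction at 16 and 24 weeks with level as a block. So did each at 16 weeks among the arrays at the higher level, which hold no 24-week rat. The genes were chosen on these same contrasts, so the kept directions are description and no test of the changes.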

How the data were processed

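Left ventricles of 16 rats were measured with 1 Affymetrix array each. The authors deposited log2 intensities per probe set, which Affymetrix Expression Console 1.2 computed by RMA per the labels, a method that corrects background, equalizes the distributions of the arrays and summarizes probes. The names of the probe sets belong to a different rat array from that given in the methods. No scanner files were processed here. Of 31099 rows, 57 control probe sets were removed, and 20826 of the remaining 31042 carry 1 gene symbol. Groups came from the labels, and 0 columns of other samples were left out.

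Each array was centred on its median. With limma 3.58.1 in R 4.3.3, group means were estimated in 1 fit over all 16 arrays and 31042 probe sets, with p adjusted by the Benjamini-Hochberg method and a threshold of 0.05, after the script had been tested on simulated data. The SE is that of the model and the SD that of 4 arrays. The 8-week values of the 10 genes also had an exact permutation test, two-sided, over the 8 arrays. The number of arrays limits the precision. A gene of a list stood for its probe set with the highest mean. Up to 3 genes of a list that passed were named, with others where a family member was of interest, and these were chosen after their values were seen.

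The 10 genes, the 11 family lists and the 14 marker lists were chosen with earlier results of these data known. Differences of the 10 genes at 16 and 24 weeks were not tested, because they chose the genes. Alternatives were deposited values without centring, quantile and cyclic loess normalization, the array level as a block or only arrays at the higher level, the methods' test (unpaired, equal variance, on the 8 arrays compared, here with Benjamini-Hochberg adjustment, whereas the methods set an unadjusted p under 0.05 and a fold over 1.5), a fit on the 8 arrays alone, limma's trend and robust settings, blocking on replicate number, only the brighter probe sets (above the median of the means), array weights, 1 probe set per gene, and leaving out each array. Promoters came from RefSeq (GRCr8), which listed 6 of the 10 genes. Pearson correlations, promoter matches and figures were made in Python 3.11.15 with scipy 1.17.1, pandas 2.3.3 and matplotlib 3.10.9.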

Additional observations from a re-analysis of the deposited data

Results flagged for a closer look

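Among 56 groups of 4 arrays (14 probe sets in 4 groups), 2 held an array that stood apart from the others by Dixon's ratio of gap to range, where chance gives about 1 in 20. In Paqr9 at 8 weeks the lowest array, at 0.60, lay below the others, at 0.84 to 0.85 (ratio 0.934). In Bex1 at 8 weeks the highest array, at 4.34, lay above the others, at 2.69 to 2.87 (ratio 0.893).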

How the results depend on the processing

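The differences of the 14 probe sets kept their direction under the alternatives run, except that of Cnpy1 at 8 weeks. That difference ran from -0.0381 without 8-week replicate 4 to 0.279 without 8-week replicate 1. At 16 and 24 weeks the genes were chosen on the same contrasts, so kept directions there are description only. At 16 weeks 382 of 384 values and at 24 weeks 362 of 370 moved by less than 1 SD between arrays, and at 8 weeks 5 of 384 were past the threshold. Of the 14, 3 passed at 8 weeks with array weights, and 0 to 1 when 1 array was left out.

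Of all probe sets, 10 passed at 8 weeks: 1 as deposited, 42 with the level as a block, 55 at the higher level only, 2 by the methods' test, 79 with only the 8 arrays compared, 165 with array weights, and 1 to 32 when 1 array was left out. At 16 weeks 1698 passed (1123 higher, 575 lower), with 462 higher and 1259 lower as deposited, 88 by the methods' test and 743 to 2103 when 1 array was left out. At 24 weeks 136 passed (84 higher, 52 lower), 3839 as deposited (145 higher, 3694 lower), 4 with the level as a block, 0 by the methods' test, 866 with array weights, and 4 to 873 when 1 array was left out. At the unadjusted p under 0.05 and fold over 1.5 of the methods, their test gave 308, 1237 and 647 at 8, 16 and 24 weeks, and at the unadjusted p alone 2426, 5571 and 4267. Of the family genes, 11 passed at 16 weeks (4 by the methods' test, 9 to 12 when 1 array was left out). At 24 weeks 2 passed: 14 as deposited, 1 each with quantile and loess normalization and with only the 8 arrays compared, 0 with the level as a block or by the methods' test, 5 with array weights, and 0 to 5 when 1 array was left out. The higher level alone gives no 24-week value. The cause of these moves was not tested.

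Same-numbered arrays did not deviate together (correlations from -0.272 to 0.238), so the numbers were not taken as pairs. With the replicate number as a block, 1 probe set passed at 8 weeks and 134 at 24 weeks, and 0 family genes at 24 weeks.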
